A study of Mus musculus with 69 samples.

Results

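The RNA levels of 8 genes that encode cell surface molecules for leukocyte adhesion and for cell junctions (Icam1, Vcam1, Sele, Selp, Alcam, F11r, Jam2 and Jam3) were taken from RNA-Seq counts of cultured vascular cells, as the rows whose Ensembl identifiers map to these symbols. They are 8 of 56953 gene rows. The rows were taken by symbol and not by a measured value, but the symbols were chosen with earlier results of these data known. The cells were primary cells of male C57BL/6 mice, whose age is not given in the sources used here. Vascular smooth muscle cells (VSMC) came from the aorta of wild-type mice (WT VSMC, 16 libraries) or of mice with floxed Egfr alleles and Cre under the SM22 promoter (KO VSMC, 15 libraries). Endothelial cells (EC, 38 libraries), all labelled wild-type, came from the heart by bead selection for CD31 without CD45. After serum-free culture, each set of dishes was kept for 24 h as Control or with stressors. These were 20 mM glucose and free fatty acids, with oleate and palmitate at 100 µM each (HG+FFA), or angiotensin II at 30 nM plus norepinephrine at 300 nM, which the labels call epinephrine (AII+NA). The last condition held both pairs of stressors (ALL). Fatty-acid-free albumin was present in all solutions. A set is the dishes from one animal at one passage that were treated together, and the sets are numbered 1 to 4 in WT VSMC, 5 to 8 in KO VSMC and 9 to 18 in EC. EC sets 17 and 18 came from 1 animal, EC sets 9 and 10 share their animals with WT VSMC sets 1 and 2, and EC sets 16 and 15 share theirs with KO VSMC sets 6 and 7. The KO VSMC ALL library of set 5, the EC Control library of set 10 and the EC AII+NA library of set 15 were not analysed here.

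Leukocytes leave the blood in steps. E-selectin (Sele) and P-selectin (Selp) on activated endothelium let them tether and roll, ICAM-1 (Icam1) and VCAM-1 (Vcam1) then bind leukocyte integrins for firm adhesion, and the junction adhesion molecules JAM-A (F11r), JAM-B (Jam2) and JAM-C (Jam3), together with ALCAM (Alcam), act at cell contacts during passage through the wall. P-selectin is stored in endothelial Weibel-Palade bodies and platelet granules, so that its surface display does not follow its RNA alone, whereas E-selectin, ICAM-1 and VCAM-1 are classical targets of NF-kB after cytokine exposure, and VSMC of inflamed vessels are known to make ICAM-1 and VCAM-1 as well.

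The stretches of 250 bases before the start of the canonical transcript of the 4 classical cytokine-inducible or endothelial members are shown because the text below sets their levels in VSMC against those in EC. All are from GRCm39, written 5′ to 3′ on the strand of the gene, with the window moved upstream where an annotated exon of the same gene reached into it. The window of Sele lies inside the annotated gene, between the first exons of a longer transcript and of the canonical one. Capitals mark matches on either strand to the kB motif in its usual 10-letter forms, to the AP-1 motif TGANTCA, to the IRF motif (GAAA and, after any 2 bases, GAAA again) or to the TATA motif TATAAA. The windows are chr9:20926422-20926671 (+) for Icam1, chr3:115923356-115923605 (−) for Vcam1, chr1:163875490-163875739 (+) for Sele and chr1:163942583-163942832 (+) for Selp.
Icam1: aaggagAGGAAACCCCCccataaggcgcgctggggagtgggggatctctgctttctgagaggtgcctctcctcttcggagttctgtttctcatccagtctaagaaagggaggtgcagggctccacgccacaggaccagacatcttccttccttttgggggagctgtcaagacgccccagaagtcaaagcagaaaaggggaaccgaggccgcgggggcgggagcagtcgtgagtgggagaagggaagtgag
Vcam1: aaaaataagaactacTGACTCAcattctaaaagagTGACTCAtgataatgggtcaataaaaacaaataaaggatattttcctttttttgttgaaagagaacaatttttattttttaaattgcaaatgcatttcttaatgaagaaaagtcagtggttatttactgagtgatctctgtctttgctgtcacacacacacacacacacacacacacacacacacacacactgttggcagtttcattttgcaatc
Sele: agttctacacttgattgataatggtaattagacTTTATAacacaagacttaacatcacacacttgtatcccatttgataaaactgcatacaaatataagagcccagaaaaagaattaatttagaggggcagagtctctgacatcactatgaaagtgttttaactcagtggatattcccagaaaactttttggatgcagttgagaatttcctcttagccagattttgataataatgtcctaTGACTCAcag
Selp: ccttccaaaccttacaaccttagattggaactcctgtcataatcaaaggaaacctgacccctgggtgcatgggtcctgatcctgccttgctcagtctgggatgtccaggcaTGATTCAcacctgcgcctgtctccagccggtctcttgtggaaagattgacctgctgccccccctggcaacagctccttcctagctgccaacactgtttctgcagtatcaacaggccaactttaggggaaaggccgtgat
Icam1 held 2 overlapping kB matches, at −244 to −235 and −243 to −234 from the end of the window. Vcam1 held 2 AP-1 matches, at −235 to −229 and −215 to −209. In Sele an AP-1 match lay at −10 to −4 and a TATA match on the minus strand at −217 to −212, and in Selp an AP-1 match lay at −139 to −133. Of 21770 windows of the same length before starts of protein-coding genes, 12.5% held a kB match, 6.17% an AP-1 match, 3.32% an IRF match and 11.9% a TATA match, so that such letters are common and are given as a description. Those windows lay directly before the canonical start and were not moved, unlike the windows shown. The windows of Icam1, Vcam1 and Selp end at the outer boundary of the annotated gene. A motif not found in a window shown may therefore lie nearer to the canonical start.

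All 8 genes are protein-coding, and in the GRCm39 annotation (build of the counts: mm39) they lie at chr9:20926672-20940113 (+, Icam1), chr3:115903598-115923355 (−, Vcam1), chr1:163867401-163886055 (+, Sele), chr1:163942833-163977595 (+, Selp), chr16:52069359-52274437 (−, Alcam), chr1:171265092-171292958 (+, F11r), chr16:84570764-84623269 (+, Jam2) and chr9:27005652-27066915 (−, Jam3). The values count reads over all exons of a gene. The strand setting of the counting is not given in the sources used here. Genes on the opposite strand overlap 31.5% of the exonic bases of Jam3 (Ncapd3 and Gm48796), 26.0% of those of Selp, 10.3% of those of Icam1 and 5.1% or less of the others, so that reads of Jam3 and Ncapd3 in particular cannot be told apart there.

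Libraries held 17166133 to 43240489 counts. Egfr, the gene deleted in KO VSMC, had set means of 246.0 to 429.8 FPM (counts normalised to library size) in WT VSMC. It had 0.959 to 1.84 FPM in KO VSMC sets 6 to 8, but 36.5 FPM in set 5. EC are labelled wild-type, and their Egfr ran up to 154.4 FPM in set 11, with the lowest values of 2.61 and 9.31 FPM in sets 16 and 15, whose animals also gave KO VSMC. The identity of the cells was read from marker lists. In WT VSMC the 7 smooth muscle markers summed to 748.2 to 1270.8 FPM per set, with Acta2 at 598.3 to 1110.1, Smtn at 45.1 to 83.2, Lmod1 at 29.6 to 54.7 and Cnn1 at 9.95 to 41.8 FPM, and with Myh11 at 3.92 to 10.8, Tagln at 2.95 to 4.7 and Myocd at 0.124 to 0.532 FPM. The 6 fibroblast markers summed to 6650 to 15006 FPM there. EC sets 9, 11 and 13 stood apart from the other EC sets, with 10 endothelial markers summing to 360 to 422 FPM against 976 to 5705 FPM, Pecam1 at 18.1 to 42.4 against 259.5 to 1593.8 FPM, and fibroblast markers at 5046 to 19439 against 1299 to 10876 FPM. Eng alone was at 287.9 to 354.6 FPM in these sets, and at 241.2 to 353.1 FPM in WT VSMC. Acta2 was at 733.9 to 3185.8 against 166.3 to 584.0 FPM in the other EC sets. The other smooth muscle markers overlapped, with Smtn at 27.3 to 34.4 against 34.2 to 80.5 FPM. The sum over the endothelial list is little guide in VSMC, where it was 251.4 to 354.8 FPM in WT and 129.4 to 235.6 FPM in KO sets. There the defining markers Pecam1 and Cdh5 stayed at or below 1.91 and 1.87 FPM, except in WT VSMC set 2, where Pecam1 was 17.3, 16.1, 12 and 6.68 FPM and Cdh5 24.0, 23.9, 17.3 and 10.2 FPM in the Control library and then with HG+FFA, with AII+NA and with ALL. The 6 leukocyte markers summed to 44.3 to 219.7 FPM in WT VSMC, 37.7 to 155.1 FPM in KO VSMC and 14.5 to 130.9 FPM in EC, with Lyz2 at up to 166.3, Cd14 at up to 31.3 and Ptprc at up to 1.09 FPM as set means. The 4 platelet markers summed to 5.86 to 44.2 FPM over all sets, with Itga2b at up to 43.3 FPM and Pf4 at up to 2.01 FPM. All VSMC libraries carry one batch label and all EC libraries another, so that cell type, organ and batch cannot be told apart.

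Vcam1 led the RNA of this group in the Control cells of all 3 cell types. Per kilobase of exon (FPKM), the median level of Vcam1 in WT VSMC was 62.6 (n = 4), and each of its libraries lay above every library of the other members. Icam1 with 30.3 FPKM, F11r with 12.8 FPKM and Jam2 with 9.57 FPKM followed, and their ranges overlapped. Jam3 at 5.87 FPKM lay below these and above Alcam at 1.62 FPKM and Selp at 0.743 FPKM, whose ranges overlapped, and Sele was last at 0.0494 FPKM. KO VSMC had the same first and last places, with Vcam1 at 60.0 FPKM and Sele at 0.0402 FPKM. Between them Icam1 at 16.1, F11r at 11.8, Jam2 at 10.6, Alcam at 6.26 and Jam3 at 5.77 FPKM overlapped from neighbour to neighbour, and Selp at 0.782 FPKM lay below all of these. In EC (n = 9) the medians fell in the order Vcam1 96.2, Selp 43.1, F11r 28.9, Icam1 17.6, Alcam 13.5, Jam2 7.11, Jam3 3.86 and Sele 1.45 FPKM, but every neighbouring pair overlapped. The most visible change of rank was that of Selp, seventh of the 8 in both kinds of VSMC and second in EC.

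**Figure D1:**
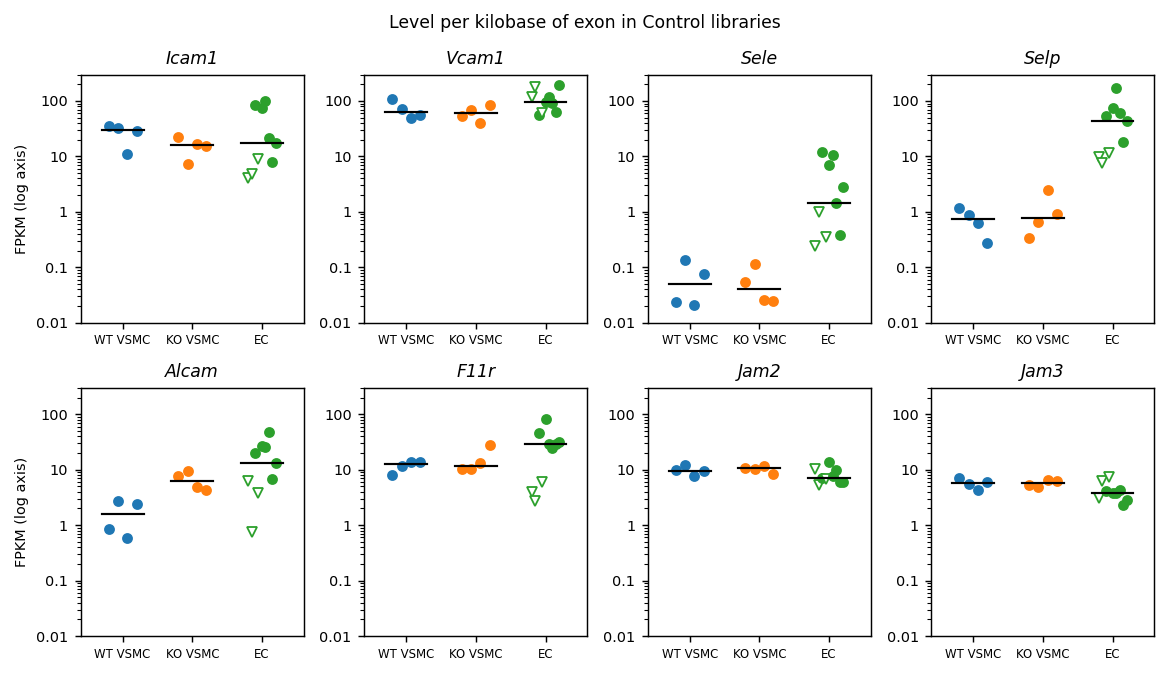
Level of each member in every Control library, in FPKM on a log axis, for WT VSMC and KO VSMC (n = 4 each) and EC (n = 9). Black lines are medians and open triangles are EC sets 9, 11 and 13. Selp and Sele of all EC libraries lie above all VSMC libraries, whereas Jam2 and Vcam1 overlap among the 3 cell types.

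Of the integrin ligands, Icam1 and Vcam1 were expressed by VSMC at levels that overlapped those of EC. In Control libraries of WT VSMC sets 1 to 4, Icam1 was at 176.9, 161.5, 55.1 and 140.0 FPM, and in KO VSMC sets 5 to 8 at 111.3, 36.0, 84.2 and 76.1 FPM. The EC Control libraries ran from 20.3 through a median of 87.3 to 503.6 FPM, on both sides of the VSMC. Vcam1 was at 966.2, 632.1, 445.0 and 493.8 FPM in WT VSMC and at 473.2, 606.3, 365.2 and 774.6 FPM in KO VSMC. In EC its lowest, median and highest values were 501.4, 864.8 and 1750.9 FPM. Neither gene passed the test between EC and WT VSMC. The log2FC (SE) of Vcam1 was 0.64 (0.37) with an adjusted p of 0.251, and that of Icam1 lay within its SE.

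The selectins separated the cell types. Selp was at 5.22, 3.81, 2.75 and 1.23 FPM in WT VSMC Control libraries and at 1.46, 2.94, 11 and 3.97 FPM in KO VSMC. In EC the lowest, median and highest Control libraries had 34.3, 190.1 and 769.3 FPM, so that even the lowest EC library lay above all VSMC Controls. Selp was higher in EC than in WT VSMC by a log2FC of 6.10 ± 1.0 (SE), 68.7-fold in the fit, with an adjusted p of 0.00358 (edgeR quasi-likelihood, Benjamini-Hochberg). Sele was near 0 in VSMC, with 0.0901, 0.514, 0.0817 and 0.289 FPM in WT Control libraries and 0.208, 0.432, 0.1000 and 0.0945 FPM in KO Control libraries. In EC it ran from 0.946 through 5.54 to 45.4 FPM, again with no overlap. The log2FC of Sele between EC and WT VSMC was 5.97 ± 1.4 (SE, 62.6-fold), with an adjusted p of 0.016. Without WT VSMC set 1, 3 or 4 the adjusted p of Sele was 0.0591, 0.056 and 0.051.

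Alcam, a homophilic adhesion molecule and ligand of CD6 on T cells, was the third member that passed this test. It was at 6.15, 19.5, 4.11 and 16.9 FPM in WT VSMC, at 54.9, 67.9, 34.2 and 30.7 FPM in KO VSMC, and at 5.39 to 347.0 FPM with a median of 96.1 FPM in EC. EC and WT VSMC overlapped because of EC set 11, whose 5.39 FPM lay among the WT values. The log2FC was 3.38 ± 0.93 (SE, 10.4-fold), with an adjusted p of 0.0325. Leaving out any single WT VSMC set brought the adjusted p to 0.0743 to 0.102. In all, 3 of 8 members were higher in EC than in WT VSMC and 0 were lower, where 6.7% of the 17115 genes tested were higher and 5.35% lower, 12% in all. The median log2FC of the 8 members was 0.96, and that of all genes 0.05.

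Among the junction adhesion molecules, the levels of Jam2 and Jam3 overlapped in all 3 cell types. Jam2, which binds JAM-C on the opposite cell, was at 107.4, 133.3, 85.4 and 104.3 FPM in WT VSMC Control libraries, at 116.9, 116.6, 128.9 and 92.2 FPM in KO VSMC and at 58.0 to 151.0 FPM in EC. Jam3 was at 47.6, 38.6, 28.9 and 41.8 FPM, at 36.7, 33.9, 45.6 and 42.2 FPM, and at 15.8 to 50.7 FPM. Between EC and WT VSMC their log2FC were −0.25 ± 0.24 (Jam2, SE, adjusted p = 0.504) and −0.44 ± 0.27 (Jam3, SE, adjusted p = 0.28). F11r, whose product JAM-A is a tight junction protein and ligand of LFA-1, was at 27.4, 40.5, 48.5 and 48.2 FPM in WT VSMC, at 35.6, 36.4, 45.1 and 98.2 FPM in KO VSMC and at 9.33, 100.1 and 290.0 FPM as the lowest, median and highest values of EC. Its log2FC was 1.28 ± 0.74 (SE, adjusted p = 0.257). Without EC sets 9, 11 and 13, F11r passed the test with a log2FC of 1.8 (adjusted p = 0.00427), Jam3 passed with −0.68 (adjusted p = 0.0269), and 5 of 8 members were called. The share of all genes called in that refit is not given here, so this count is not a result about the members.

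The EC sets spanned a wide range for 5 of the 8 members. The highest set mean was 83.6 times the lowest for Sele, 58.8 times for Alcam, 41.4 times for Icam1, 34.5 times for F11r and 21.3 times for Selp, but only 3.4 times for Vcam1, 2.82 times for Jam2 and 2.75 times for Jam3. Sets 9, 11 and 13, with the low endothelial markers, held F11r at 8.45 to 24.0 FPM against 83.8 to 291.8 FPM in the other EC sets, Selp at 40.0 to 50.9 against 103.4 to 853.5 FPM, Alcam at 4.56 to 42.9 against 55.8 to 268.1 FPM and Icam1 at 22.2 to 34.6 against 41.7 to 917.6 FPM. For Vcam1 (633.2 to 1435.6 against 590.5 to 2007.7 FPM) and Jam2 (60.6 to 122.9 against 48.8 to 137.7 FPM) the same sets lay within the range of the others. Jam3 reached higher in these sets, at 24.6 to 47.7 against 17.4 to 27.8 FPM. Sele lay at the low end but overlapped, at 1.14 to 3.76 against 1.19 to 94.9 FPM. In bulk libraries fewer cells of a type and less RNA per cell cannot be told apart. Within the 6 other EC animals, no member passed a test of its set level against the summed endothelial markers (8 relations, exact permutation, two-sided). F11r had the largest r of 0.686 (p = 0.135, adjusted p = 0.703) with a Spearman rho of 0.6 (p = 0.242, adjusted p = 0.752) and an r of 0.497 without the 2 animals farthest from the median. The other adjusted p-values of r were at or above 0.703 too. Sets 17 and 18, from the same animal, also differed. Sele was at a set mean of 1.19 FPM in set 17 and 10.4 FPM in set 18, Vcam1 at 639.5 and 2007.7 FPM and Icam1 at 41.7 and 92.7 FPM, whereas F11r was at 102.5 FPM in both.

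**Figure D2:**
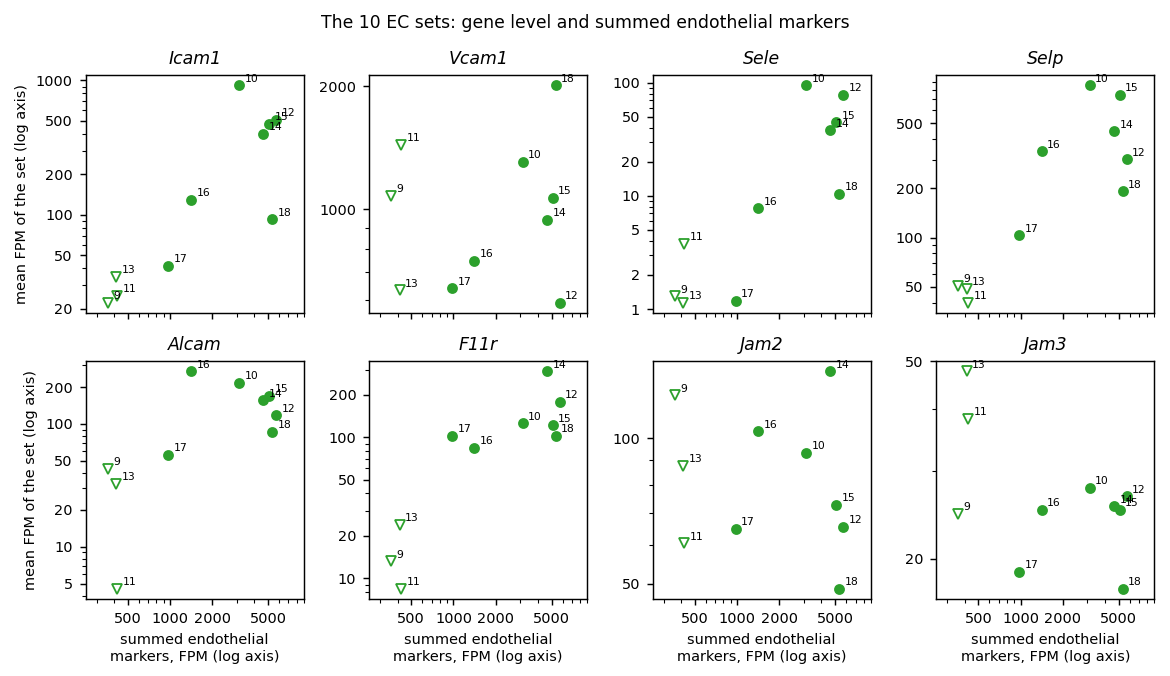
Set-mean level of each member in EC against the summed level of 10 endothelial markers, both in FPM on log axes. Each point is 1 of 10 EC sets with its number, and open triangles are sets 9, 11 and 13. The triangles lie at the low end for F11r, Selp, Icam1 and Alcam and among the other sets for Vcam1 and Jam2.

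KO VSMC and WT VSMC differed most in Alcam. All 4 KO VSMC Control libraries (30.7 to 67.9 FPM) lay above all 4 WT libraries (4.11 to 19.5 FPM), and the means were 46.9 ± 17.6 and 11.7 ± 7.66 FPM (SD, n = 4 each). Alcam had a log2FC of 2.00 ± 0.5 (SE, 4.01-fold) with an unadjusted p of 0.00294 and an adjusted p of 0.299 in edgeR and of 0.00597 in DESeq2. The call thus depended on the tool. Icam1 had a log2FC of −0.80 ± 0.41 (SE, adjusted p = 0.432), with 3 KO libraries above the lowest WT library, and F11r one of 0.39 ± 0.35 (SE, adjusted p = 0.631). In edgeR 0 of the 7 members tested passed, where 0.00622% of 16089 genes did, and 1 (Alcam) had an unadjusted p under 0.05, where 12.2% of all genes did. Sele was too low to be tested. In DESeq2 2.01% of the genes passed. The genotypes came from different animals, and fibroblast markers were at 2110.5 to 10790 FPM in KO sets against 6650 to 15006 FPM in WT sets. Epithelial and mesothelial markers, mostly Upk3b, were at 7.01 to 73.9 against 3.75 to 5.72 FPM. Pericyte markers, in KO sets mostly Rgs5, were at 26.2 to 375.7 against 1.26 to 32.4 FPM. Smooth muscle markers were at 895.7 to 3236.8 against 748.2 to 1270.8 FPM. The part of these cell markers in the difference of Alcam was not tested.

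The stressors were then compared with Control within sets. In edgeR none of the 8 members (7 in KO VSMC) passed an adjusted p of 0.05 in any of the 9 comparisons. The share of all genes that passed in WT VSMC was 0.538% with HG+FFA, 0.0532% with AII+NA and 7.45% with ALL. It was 0.439%, 0.0% and 0.399% in KO VSMC, and 3.53%, 0.0% and 3.18% in EC. At an unadjusted p under 0.05 the members numbered 2, 1 and 3 in WT VSMC, where 11.2%, 9.42% and 21.7% of all genes met it, 3, 0 and 3 in KO VSMC (12.4%, 9.76% and 10.5%), and 4, 0 and 4 in EC (16.9%, 6.67% and 16.2%). DESeq2 called Selp under AII+NA and Alcam under ALL in WT VSMC, Selp and F11r under HG+FFA and under ALL in KO VSMC, and Selp under ALL in EC. Its shares over all genes were 1.39%, 1.09% and 5.05% in WT VSMC, 1.64%, 0.695% and 1.45% in KO VSMC, and 7.2%, 0.246% and 5.99% in EC.

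**Figure D3:**
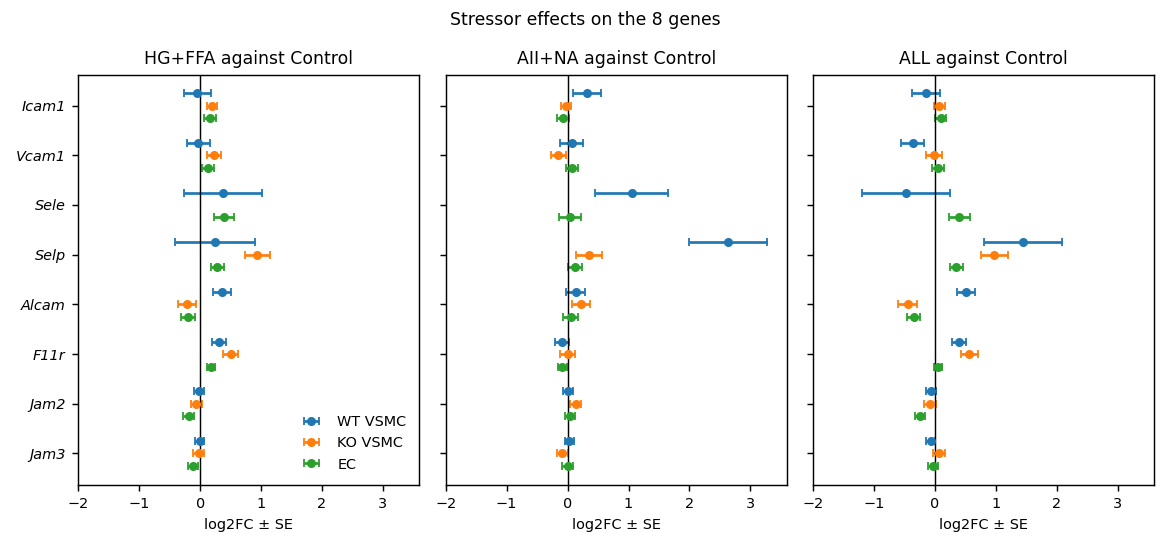
Log2 fold change against Control (bars: SE) of each member under HG+FFA, AII+NA and ALL, from the paired edgeR fits of WT VSMC, KO VSMC and EC. Selp under AII+NA in WT VSMC is the largest value at 2.64, and F11r lies above 0 under HG+FFA and ALL in both kinds of VSMC. Sele was not tested in KO VSMC.

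Selp stood above its own Control in all 4 WT VSMC sets under AII+NA. It went from 5.22 to 14 FPM in set 1, from 3.81 to 53.3 FPM in set 2, from 2.75 to 4.67 FPM in set 3 and from 1.23 to 16.9 FPM in set 4. The smallest ratio was 1.67 and the largest 13.7. The log2FC was 2.64 ± 0.64 (SE, 6.25-fold) with an unadjusted p of 0.000812 and an adjusted p of 0.156 in edgeR and 0.0274 in DESeq2. Without the AII+NA library of set 2 it was 1.62 (adjusted p = 0.356). Under ALL, Selp was at 8.31, 3.81, 7.20 and 14.9 FPM, with set 2 at the level of its Control, and the log2FC was 1.45 ± 0.64 (SE, adjusted p = 0.203). Without set 4 it was 0.77 (adjusted p = 0.671). Under HG+FFA the 4 values of 4.23, 1.79, 6.25 and 2.06 FPM lay on both sides of the Controls. WT VSMC set 2, with the highest Selp, is the set with Pecam1 and Cdh5, at 17.3 and 24.0 FPM in its Control and 12 and 17.3 FPM in its AII+NA library. In that AII+NA library 14 of 15 genes on a list of NF-kB factors and feedback targets also lay above their Control, as given below. The part of these endothelial markers and NF-kB genes in the Selp values was not tested.

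In KO VSMC, Selp lay above Control in all 4 sets under HG+FFA. The levels went from 1.46 to 2.64, from 2.94 to 6.08, from 11 to 23.4 and from 3.97 to 6.47 FPM in sets 5 to 8, ratios of 1.62 to 2.13. The log2FC was 0.94 ± 0.2 (SE, 1.92-fold), with an adjusted p of 0.0621 in edgeR and 0.00472 in DESeq2. Under ALL, sets 6 to 8 had 6.04, 27.1 and 4.78 FPM, and the log2FC was 0.97 ± 0.22 (SE), with an adjusted p of 0.0774 in edgeR and 0.0107 in DESeq2. Under AII+NA the KO values were 2.61, 3.48, 10.7 and 5.26 FPM, with a log2FC of 0.35 ± 0.21 (SE, adjusted p = 0.53). In EC, Selp was above Control in 7 of 9 sets under HG+FFA (log2FC 0.28 ± 0.11, SE, adjusted p = 0.147) and in 8 of 9 sets under ALL (0.35 ± 0.11, SE, adjusted p = 0.0623 in edgeR and 0.0238 in DESeq2). The median ratios in EC were 1.31 and 1.42, and under AII+NA the median ratio was 1.02.

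F11r was above Control under HG+FFA in 8 of 8 VSMC sets and under ALL in 7 of 7. In WT VSMC sets 1 to 4 it was at 48.5, 40.8, 59.3 and 52.7 FPM under HG+FFA and at 48.6, 48.2, 59.8 and 54.6 FPM under ALL, against 27.4, 40.5, 48.5 and 48.2 FPM in Control. Set 1 had the largest ratio (1.77 under both) and set 2 the smallest under HG+FFA (1.01). The log2FC was 0.31 ± 0.12 (SE, adjusted p = 0.324) for HG+FFA and 0.39 ± 0.12 (SE, adjusted p = 0.0657 in edgeR and 0.0513 in DESeq2) for ALL. In KO VSMC sets 5 to 8 the Control values of 35.6, 36.4, 45.1 and 98.2 FPM were followed by 50.3, 43.6, 87.6 and 119.4 FPM under HG+FFA, with 45.6, 94.1 and 120.8 FPM under ALL in sets 6 to 8. The log2FC was 0.50 ± 0.12 (SE, adjusted p = 0.118 in edgeR and 0.0285 in DESeq2) and 0.56 ± 0.14 (SE, adjusted p = 0.107 and 0.0213). Under AII+NA, F11r lay near its Controls, with 25, 33.5, 48.0 and 48.9 FPM in WT and 35.0, 35.1, 46.8 and 99.5 FPM in KO VSMC, ratios to Control of 0.828 to 1.04 over all 8 sets. In EC, F11r was above Control in 7 of 9 sets under HG+FFA, with a log2FC of 0.18 ± 0.071 (SE, adjusted p = 0.182). Under ALL it was above Control in 4 and below it in 5 of 9 sets, with a median ratio of 0.993 (adjusted p = 0.804). Under AII+NA it was below Control in 7 of 8 sets, with a log2FC of −0.09 ± 0.074 (SE, adjusted p = 0.786).

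**Figure D4:**
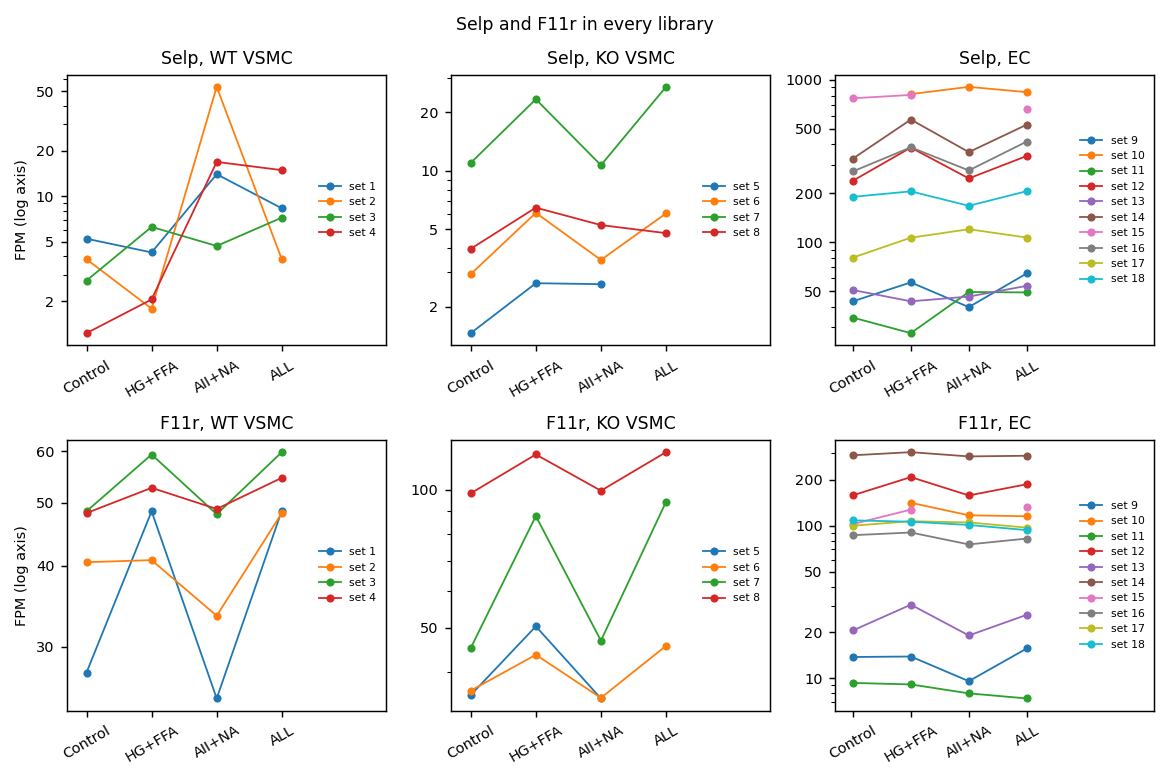
Selp and F11r in every library, in FPM on a log axis, by condition for WT VSMC, KO VSMC and EC. Each line joins the libraries of 1 set, and gaps are libraries not analysed here. In WT VSMC the Selp lines of sets 1, 2 and 4 are highest at AII+NA, from 14 to 53.3 FPM, and that of set 3 at ALL (7.20 FPM). The F11r lines of VSMC lie above their Controls at HG+FFA and ALL.

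The integrin ligands did not pass the test with any stressor, and most ratios to Control lay near 1. Icam1 in WT VSMC was at 169.3, 109.2, 66.3 and 147.0 FPM under HG+FFA, at 164.2, 317.0, 64.0 and 131.0 FPM under AII+NA and at 185.5, 98.3, 60.9 and 122.0 FPM under ALL. In set 2, Icam1 under HG+FFA and ALL was at 0.676 and 0.609 times its Control. The AII+NA library of set 2 stood out most, at 1.96 times its Control. In that library Vcam1 was at 897.1 against 632.1 FPM, Sele at 1.79 against 0.514 FPM, and 14 of 15 genes on a list of NF-kB factors and feedback targets lay above their Control, with a median log2 ratio of 0.61 (Tnfaip3, which limits NF-kB signalling, went from 27.4 to 74.4 FPM). In sets 1, 3 and 4 the same list had 5, 9 and 8 of 15 genes above Control and medians of −0.13, 0.02 and 0.05. The log2FC of Icam1 under AII+NA was 0.32 ± 0.23 (SE, adjusted p = 0.71), and without that library it was −0.12. Under ALL, Vcam1 in WT VSMC was at 647.1, 350.5, 420.4 and 493.8 FPM, below Control in sets 1 to 3 and level with it in set 4, with a log2FC of −0.37 ± 0.19 (SE, adjusted p = 0.268). In KO VSMC under HG+FFA, Icam1 was at 114.7, 41.0, 98.1 and 96.8 FPM and Vcam1 at 569.8, 822.3, 370.5 and 869.8 FPM, each above Control in 4 of 4 sets, with log2FC of 0.20 ± 0.084 (SE, adjusted p = 0.347) and 0.23 ± 0.12 (SE, adjusted p = 0.43). In EC Icam1 under HG+FFA had a log2FC of 0.16 ± 0.093 (SE, adjusted p = 0.391).

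Under ALL, Alcam lay above Control in 4 of 4 sets of WT VSMC and below it in 2 of 3 sets of KO VSMC and 7 of 9 sets of EC. In WT VSMC it was at 11.1, 22.0, 6.53 and 16.5 FPM under HG+FFA and at 14.1, 20.5, 8.03 and 17.2 FPM under ALL, against 6.15, 19.5, 4.11 and 16.9 FPM in Control. Sets 1 and 3, which had the least Alcam, had the largest ratios. The log2FC was 0.36 ± 0.15 (SE, adjusted p = 0.38) for HG+FFA and 0.51 ± 0.15 (SE, adjusted p = 0.055 in edgeR and 0.0308 in DESeq2) for ALL. In KO VSMC it was at 47.4, 52.9, 25.6 and 33.3 FPM under HG+FFA and at 51.3, 17.2 and 31.5 FPM under ALL in sets 6 to 8, against 54.9, 67.9, 34.2 and 30.7 FPM in Control, with log2FC of −0.22 ± 0.15 (SE, adjusted p = 0.514) and −0.45 ± 0.16 (SE, adjusted p = 0.336). In EC it was below Control in 7 of 9 sets under ALL, with ratios of 0.595 to 1.33 and a log2FC of −0.35 ± 0.11 (SE, adjusted p = 0.0891 in edgeR and 0.0528 in DESeq2).

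In EC, Sele and Jam2 also had an unadjusted p under 0.05. Sele had ratios to Control of 0.413 to 2.62 under HG+FFA and 0.416 to 2.03 under ALL over 9 sets, with log2FC of 0.39 ± 0.17 (SE, adjusted p = 0.222) and 0.40 ± 0.17 (SE, adjusted p = 0.231). The set with the highest level of Sele in Control, set 12, went from 45.4 to 119.0 FPM under HG+FFA. Jam2 was below Control in 6 of 9 sets under both, with log2FC of −0.19 ± 0.084 (SE, adjusted p = 0.223) and −0.25 ± 0.083 (SE, adjusted p = 0.0981). Without EC sets 9, 11 and 13 they were −0.35 (adjusted p = 0.0357) and −0.41 (adjusted p = 0.0133). Jam3 had a log2FC of −0.12 ± 0.083 (SE, adjusted p = 0.487) in EC under HG+FFA.

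Whether the combined stressors differed from the sum of the single ones was tested as the log2FC of ALL less the log2FC of both single pairs. No member passed in any cell type, and 0.0% of all genes did. In WT VSMC the departure of Sele was −1.90 ± 0.92 (SE, unadjusted p = 0.0545, adjusted p = 1.0) and that of Selp −1.44 ± 0.89 (SE, unadjusted p = 0.125, adjusted p = 1.0). Without the AII+NA library of set 2 they were −0.73 and −0.45. In KO VSMC the departure of Alcam was −0.45 ± 0.22 (SE, unadjusted p = 0.057, adjusted p = 0.658). By unadjusted p, 0 members were under 0.05 in WT VSMC, KO VSMC and EC, where 1.72%, 6.59% and 8.42% of all genes were, and DESeq2 called 0 members, where its shares were 0.265%, 0.25% and 0.334%.

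The stressor effects were then compared between cell types, in joint models in which both share 1 estimate of the spread of each gene. For Selp under AII+NA the SE was 0.64 in WT VSMC alone and 0.11 in EC alone. The SE of the joint model, given next, thus does not show the full spread among WT VSMC sets. The AII+NA effect on Selp was smaller in EC than in WT VSMC (EC minus WT VSMC −2.52 ± 0.48, SE, unadjusted p = 4.52e-06, adjusted p = 0.0219 in edgeR and 0.00132 in DESeq2). This was 1 of 8 members called in edgeR, where 0.0465% of 19362 genes were, and DESeq2 called 0.337%. Without WT VSMC set 2 the difference was −1.79 (adjusted p = 0.15), without set 4 −2.36 (adjusted p = 0.129) and without EC sets 9, 11 and 13 −2.52 (adjusted p = 0.149). The ALL effect on Alcam was lower in EC than in WT VSMC (−0.86 ± 0.21, SE, adjusted p = 0.0469 in edgeR and 0.0134 in DESeq2), as the 1 of 8 members called where 0.511% of genes were. The call was lost without WT VSMC set 1, 2 or 3 (−0.66, −1.02 and −0.74; adjusted p = 0.333, 0.0541 and 0.252) and without EC set 9, 10, 12, 14, 15 or 18, where the adjusted p was 0.0538 to 0.123. For HG+FFA 0 members were called, and 0.0% of all genes. The members with an unadjusted p under 0.05 numbered 1 of 8 for HG+FFA (Alcam, −0.57 ± 0.21, SE, adjusted p = 1.0), 1 for AII+NA and 4 for ALL, where 2.05%, 6.5% and 6.48% of all genes had one. The 3 besides Alcam under ALL were Vcam1 (0.43 ± 0.20), Selp (−1.09 ± 0.48) and F11r (−0.33 ± 0.14), with adjusted p-values of 0.73, 0.638 and 0.59. DESeq2 called no other member in these contrasts, where its shares of all genes were 0.205% for HG+FFA and 0.853% for ALL.

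Between genotypes no stressor effect differed by an adjusted p under 0.05. The shares of all 18339 genes called were 0.0% with either single pair and 0.0109% with ALL. The ALL effect on Alcam, with the sets as given above, differed by a log2FC of 0.97 ± 0.24 (WT minus KO, SE, unadjusted p = 0.00042, adjusted p = 0.197 in edgeR and 0.0186 in DESeq2). For AII+NA the difference in Selp was 2.32 ± 0.76 (SE, unadjusted p = 0.00552, adjusted p = 0.395), and for HG+FFA that in Alcam was 0.59 ± 0.22 (SE, unadjusted p = 0.0142, adjusted p = 1.0). All other members had an unadjusted p above 0.05 in these 3 contrasts, where 3.08%, 11.9% and 7.42% of all genes had a lower one. DESeq2 called 0, 0 and 1 members, where its shares of all genes were 0.54%, 0.615% and 0.735%.

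The partners of these molecules were read from 4 lists. Between EC and WT VSMC in Control, 6.7% of all genes tested were higher and 5.35% lower. Of 27 listed genes for adhesion partners and transmigration, 23 were tested in that comparison, and 8 were higher and 1 lower, with a median log2FC of 0.80. Among them Pecam1 encodes CD31, by which the EC were selected, so that its call is no independent result. Emcn, a sialomucin of venous and capillary endothelium, was higher by 8.02, Ocln, a tight junction protein, by 7.60, Pecam1 by 7.02 and Esam, a JAM-related molecule, by 5.72, while Thy1, a fibroblast surface molecule, was at −3.51. Of 8 integrin counter-receptor genes 5 were tested and Itga4, the subunit that pairs into the VCAM-1 receptor VLA-4, was higher by 4.57. Of 10 membrane linkers and sheddases, 3 were higher (Adam10, a protease that sheds adhesion molecules, at 1.14, Rdx at 0.81 and Flna at 0.78) and Rhog was lower at −0.88. Of 15 NF-kB genes, Tnfaip3 at 1.53 and Cyld at 0.84 were higher.

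With the stressors most calls among the partners were in WT VSMC under ALL, the comparison with the most calls over all genes (7.45%). There 1 of 21 adhesion partners was higher (Nectin2, 0.55) and 4 were lower, namely Emcn (−1.57), Cd34 (−1.23), Cdh5 (−1.17) and Podxl (−1.03), with a list median of −0.26 against −0.01 for all genes. Cdh5 and Emcn are endothelial markers, at 2.74 and 0.793 FPM under ALL and 6.38 and 1.77 FPM in Control as means over the 4 sets, and WT VSMC set 2 holds most of Cdh5. Flna (0.53) and Actn4 (0.49), both linkers to actin, were higher, and 0 of 15 NF-kB genes passed in edgeR or DESeq2, with 2 lower at an unadjusted p under 0.05. Under HG+FFA only Cd34 passed in WT VSMC (−0.85), and in EC only Emcn passed, at 0.37 under HG+FFA and 0.40 under ALL. Under AII+NA 0 genes of the 4 lists passed in edgeR in WT VSMC (9 at an unadjusted p under 0.05, 3 called by DESeq2) and in EC (4 and 0). Of all genes 9.42% in WT VSMC and 6.67% in EC had such an unadjusted p. In KO VSMC 0 passed in edgeR under HG+FFA, AII+NA or ALL, where 6, 3 and 6 of 49 had an unadjusted p under 0.05 and DESeq2 called 2, 0 and 2. Of all genes 12.4%, 9.76% and 10.5% had such an unadjusted p there. Between EC and WT VSMC the ALL effect differed for Emcn (1.81), Cdh5 (1.27) and Cd34 (0.98).

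Genes with the most similar pattern were found by Pearson correlation of log2 FPM after the mean of each set was removed, as a description over libraries that share sets, stressors and sequencing runs. The AII+NA library of WT VSMC set 2 is among them. Over 31 VSMC libraries and 12159 genes, Icam1 was closest to Slc11a2 (r = 0.919), Tnfaip3 (0.907) and Tnfaip2 (0.892), and Vcam1 to Ccl2 (0.888), Tnfaip2 (0.868) and Cxcl1 (0.852). Selp was closest to Rnd1 (0.914), Ctps1 (0.913) and Gpr176 (0.864). F11r was closest to Stbd1 (0.938), Plin2, the coat protein of lipid droplets (0.921), and Scarb2 (0.893). Alcam had weaker neighbours in Stc1 (0.703), Slc45a3 (0.703) and Fbln5 (0.702), whereas Jam2 was closest to Tmtc1 (0.852) and Jam3 to Cep20 (0.864). Over 38 EC libraries and 12274 genes the first neighbours were Plaur (0.809) for Icam1, Lamp2 (0.804) for Vcam1, Cd38 (0.718) for Sele, Lima1 (0.82) for Selp, Arsk (0.822) for Alcam, Ccdc47 (0.776) for F11r, Nrp1 (0.853) for Jam2 and Cd9 (0.699) for Jam3.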

How the data were processed

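RNA of 69 libraries of WT VSMC, KO VSMC and EC was measured by poly(A) RNA-Seq. The authors aligned the reads to mm39 with HISAT2 2.1.0 and deposited raw counts per gene from featureCounts (exons, reads with several alignments included). Strand and read-pair settings are not given in the sources used here. Gene symbols, positions and lengths came from the GENCODE annotation of GRCm39, which held 56310 of the 56953 identifiers, and columns mapped to samples by their titles.

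Here edgeR 4.0.16 (R 4.3.3) was used, with TMM normalization, filterByExpr by group, a quasi-likelihood model of condition and set for each cell type, joint models for differences between effects, and Benjamini-Hochberg adjustment over all genes tested at 0.05. The comparisons between cell types or genotypes used Control libraries without a set term. The joint models share 1 estimate of the spread of each gene between the groups compared. FPM are the CPM of edgeR on TMM library sizes over all 69 libraries, FPKM are FPM per kilobase of all exons, and 0.1 FPM was added to both libraries before single ratios were formed. DESeq2 1.42.0 with its own size factors, no count filter, no set term, complete sets and left-out sets were the alternatives. Refits without EC sets 9, 11 and 13 or without the AII+NA library of WT VSMC set 2 were chosen after the values were seen. The fits were tested on simulated data. The set numbers pair the libraries, since the study describes a set as 1 animal, passage and treatment time. Deviations from group means correlated at 0.797, 0.78 and 0.82 on average within sets of WT VSMC, KO VSMC and EC. The members and lists were chosen with earlier results of these data known. All members were taken through every comparison, except Sele where it was too low to be tested, but not every value is printed. Genes of other lists are named by size of change among those that passed. The relation to endothelial markers was planned over all EC animals and is given without sets 9, 11 and 13, which stand apart. Depth limits Sele in VSMC, where libraries hold few reads.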

Additional observations from a re-analysis of the deposited data

Results flagged for a closer look

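In 88 groups of 4 to 10 libraries, each group's highest and lowest values were compared with the rest by Dixon's test at the 95% level, and 7 were flagged. A chance rate of about 1 in 20 groups would hold for independent groups of normally distributed values. Here the same sets recur over conditions and FPM were not logged, so the count is not read against that rate. Icam1 in EC set 10 was the highest of its group under AII+NA (822.8 FPM, next 385.2 FPM) and under ALL (1090.5 FPM, next 556.2 FPM). Selp in EC set 10 was the highest under AII+NA (904.9 FPM, next 358.5 FPM), and in EC Control set 15 was the highest (769.3 FPM, next 326.9 FPM). Vcam1 in EC set 18 was the highest under HG+FFA (2191 FPM, next 1338.7 FPM) and under ALL (2196.9 FPM, next 1319.7 FPM), and set 17 of the same animal did not stand out. F11r in KO VSMC Control was highest in set 8 (98.2 FPM, next 45.1 FPM), and without that set the log2FC of F11r between KO and WT VSMC was −0.09.

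Effects of a stressor differed between EC and WT VSMC by the test of the difference itself for Selp under AII+NA (−2.52) and for Alcam under ALL (−0.86). Both calls were lost without single sets, as given beside them above, and rest on a spread shared between the cell types.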

How the results depend on the processing

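Of 79 log2FC larger than their SE, 1126 refits gave 1048 with the same direction and side of the threshold, 51 that newly passed, 21 that no longer passed and 6 with the other sign. The latter were F11r for HG+FFA in EC minus WT VSMC (−0.23 to 0.03 over left-out sets, 0.03 without WT VSMC set 1), the Selp departure in KO VSMC with no replicate block (0.22), F11r in KO against WT VSMC (−0.09 to 0.55 over left-out sets, −0.09 without KO VSMC set 8) and, without the AII+NA library of WT VSMC set 2, Icam1 (−0.12) and Sele (−0.09) under AII+NA and the Icam1 departure (0.02). A further 76 log2FC within their SE took the other sign in 116 of 1008 refits and were called in 0.

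Members called changed as follows. Apart from DESeq2, the shares of all genes called in the refits are not given here, so these counts are not a result about the members. With no count filter the members called numbered 1, 2 and 4 in WT VSMC under HG+FFA, AII+NA and ALL, and 2 and 3 in KO VSMC under HG+FFA and ALL. They numbered 2 and 3 in EC under HG+FFA and ALL, 1 for the WT VSMC departure, 2 for ALL in EC minus WT VSMC, and 1 each for AII+NA and ALL in WT minus KO VSMC. In that refit Selp under AII+NA in WT VSMC had a log2FC of 2.63 with an adjusted p of 6.73e-76 (edgeR), against 2.64 and 0.156 in the main fit. The cause of these changes was not tested. With DESeq2 the members called numbered 1 in WT VSMC under AII+NA and 1 under ALL, 2 in KO VSMC under HG+FFA and 2 under ALL, 1 in EC under ALL, 1 for ALL in WT minus KO VSMC and 1 in KO against WT VSMC. With complete sets only they numbered 2 and 1 in KO VSMC under HG+FFA and ALL and 1 in EC under ALL, and with only the 2 conditions compared 1 in WT VSMC under AII+NA. Without EC sets 9, 11 and 13 they numbered 2 in EC under HG+FFA, 1 under ALL, 5 in EC against WT VSMC and 0 for AII+NA in EC minus WT VSMC. With no replicate block, 0 were called for AII+NA and 0 for ALL in EC minus WT VSMC, and this changed no other count of members. Leaving out single sets gave 0 to 1 in WT VSMC under ALL, 0 to 2 in KO VSMC under HG+FFA and 0 to 1 under ALL, 0 to 2 in EC under ALL, 1 to 3 in EC against WT VSMC and 0 to 1 for both AII+NA and ALL in EC minus WT VSMC.

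With the longest transcript as the length, Control medians were Icam1 48.0, Vcam1 137.7, Jam2 19.6 and Jam3 7.94 FPKM in WT VSMC, 25.5, 132.1, 21.6 and 7.79 FPKM in KO VSMC, and Vcam1 211.6 and Jam2 14.5 FPKM in EC, so that Jam2 ranked above F11r in VSMC. Over EC animals, r with endothelial markers turned to 0.305 for Alcam and 0.365 for Jam2 without the 2 farthest animals, and a relation over Control libraries alone was not run, since too few animals remain. Summing EC sets 17 and 18, or leaving out the EC sets whose animals gave WT VSMC, kept 3 members called in EC against WT VSMC. Sele in VSMC is limited by depth.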
